A study of Mus musculus with 6 samples.

Results

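The small heat shock proteins of muscle and their co-chaperone Bag3 form a set of 8 genes (Hspb1, Hspb2, Hspb3, Hspb6, Hspb7, Hspb8, Cryab and Bag3), taken by gene symbol from a table of 50385 genes. All 8 have 1 entry each in that table and passed the filter on low counts. They were measured by RNA sequencing of hearts in 6 libraries, 3 after setanaxib and 3 after vehicle. The sample titles say heart and name no part of it. Setanaxib, a drug that the labels call a Nox4 inhibitor, was given daily by gavage at 60 mg/kg for 12 weeks, and vehicle mice had corn oil instead. All mice were male, lacked both dystrophin and utrophin (Mdx/Utrn dKO) and were 2 to 3 months old at the start. No wild-type heart is part of the comparison, so a level here is that of a dystrophic heart, with or without the drug. Each library has its own number in the labels, which do not state that it is 1 animal, so a p-value here reflects the spread between libraries and nothing wider.

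Small heat shock proteins hold unfolding proteins in solution without using ATP and pass them on to the HSP70 machinery. Heart muscle makes them at high levels, where they bind the actin, desmin and filamin framework around the sarcomere. Bag3 joins HSPB8 to HSP70 and steers damaged filamin to autophagy, and mutations of human BAG3 and CRYAB cause myofibrillar myopathy and cardiomyopathy. Several of these genes are targets of heat shock factor HSF1, which binds inverted repeats of the letters GAA and TTC called heat shock elements.

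Promoter windows are shown because several of these genes are targets of HSF1, and heat shock elements are known from windows of this kind. Whether the elements bear on how the levels vary between libraries was not tested. RefSeq windows on the mouse build GRCm38.p6 each held 250 bases before and 50 bases after an annotated start. The set used had windows for 6 of the 8 genes and none for Hspb2 and Cryab. The deposited counts were made on GRCm39, so the windows serve as sequence only. The 2-unit element GAANNTTC, which reads the same on both strands, occurred in windows of 5 of the 6 genes, and in 7.86% of all 32851 windows. These units differ, as the 6 genes have 7 windows. Hspb6 has 2, of which 1 held the element. In 4 genes (Hspb1, Hspb6, Hspb8 and Bag3) the match had the same 8 letters, GAAGTTTC. These letters were picked after reading the windows, and occur on either strand in 1.21% of all windows. The 4 windows are printed 5′ to 3′ in the gene's direction, with GAANNTTC matches in capitals.
Hspb1, chr5:135887669-135887968, plus strand: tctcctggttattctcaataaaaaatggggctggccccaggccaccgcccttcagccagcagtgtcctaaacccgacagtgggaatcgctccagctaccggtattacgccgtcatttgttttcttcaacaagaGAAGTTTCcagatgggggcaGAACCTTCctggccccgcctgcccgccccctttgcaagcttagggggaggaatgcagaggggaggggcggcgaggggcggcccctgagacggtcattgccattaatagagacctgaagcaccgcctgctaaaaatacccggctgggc
Hspb6, chr7:30553051-30553350, plus strand: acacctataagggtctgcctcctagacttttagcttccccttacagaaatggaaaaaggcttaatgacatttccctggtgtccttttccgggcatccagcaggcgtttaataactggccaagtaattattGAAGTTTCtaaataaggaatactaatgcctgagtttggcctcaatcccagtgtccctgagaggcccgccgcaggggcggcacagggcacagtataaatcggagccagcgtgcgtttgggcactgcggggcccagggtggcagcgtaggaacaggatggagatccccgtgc
Hspb8, chr5:116422815-116423114, minus strand: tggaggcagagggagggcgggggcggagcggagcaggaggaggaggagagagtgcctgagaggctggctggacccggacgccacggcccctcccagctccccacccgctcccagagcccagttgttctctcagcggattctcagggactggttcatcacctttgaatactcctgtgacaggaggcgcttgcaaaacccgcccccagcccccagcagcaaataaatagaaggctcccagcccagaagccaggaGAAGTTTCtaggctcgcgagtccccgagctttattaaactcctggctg
Bag3, chr7:128523333-128523632, plus strand: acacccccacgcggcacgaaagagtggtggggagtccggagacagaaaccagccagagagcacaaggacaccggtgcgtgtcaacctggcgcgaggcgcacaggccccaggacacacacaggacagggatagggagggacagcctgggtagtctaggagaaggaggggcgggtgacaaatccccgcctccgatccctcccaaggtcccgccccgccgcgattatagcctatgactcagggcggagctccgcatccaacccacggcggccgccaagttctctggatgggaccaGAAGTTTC

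The GAAGTTTC match began 117 bases before the start in Hspb1 and 120 bases before it in Hspb6, but 2 bases after it in Hspb8 and 42 bases after it in Bag3. Hspb1 held another match, GAACCTTC, 97 bases before its start. The Hspb3 match was GAATTTTC, 224 bases before the start (on chromosome 13, cgaatgGAATTTTCaggcag), and the Hspb7 window held none. The other 2-unit form, TTCNNGAA, was in no window of these genes and in 8.52% of all windows. A 3-unit element (GAA, TTC and GAA, each 2 letters apart), searched on both strands, was likewise in none, against 0.603% of all. A MEF2 motif lay 12 bases before the start of Hspb3, where 0.557% of all windows hold one, and overlapped a TATAAA match. Hspb6 also had TATAAA, 29 bases before the start, a motif found in 13.6% of all windows on either strand. Its other annotated start had no heat shock element and 4 CCAAT matches on either strand, a motif of 37.4% of all windows. A match of letters is a description of the sequence and does not show that a factor binds there.

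The libraries held 110803307 to 154003318 estimated counts, and each of the 8 genes rested on at least 182 of them in every library. Setanaxib replicate 3 stood apart from the other 5 libraries. Of 6 listed atrial markers, Sln and Bmp10 were not found in the table by symbol. All 4 atrial markers used here (Myl7, Myl4, Nppa and Dkk3) were highest in setanaxib replicate 3. Their sum was 68.8 to 3129 CPM (counts scaled to library size, TMM-normalised) in setanaxib libraries, with the upper value from replicate 3, against 125.4 to 589 CPM in vehicle libraries. Its lung epithelial markers summed to 606 CPM, nearly all Scgb1a1, against at most 19.6 CPM in the other libraries, and Sftpc, Sftpb and Sftpa1 were above 0 in no other library. Its 5 adipocyte markers summed to 119 CPM, against at most 4.15 CPM elsewhere. The other 5 libraries were not alike either. Myl7 was at 23.3 and 21.4 CPM in vehicle replicates 1 and 3. In setanaxib replicates 1 and 2 and vehicle replicate 2 Myl7 was at 0.605, 1.33 and 0.103 CPM. Scgb1a1 was at 3.89 and 19.6 CPM in vehicle replicates 1 and 3. In setanaxib replicates 1 and 2 and vehicle replicate 2 Scgb1a1 was at 0.102, 0.114 and 0 CPM. The 10 cardiomyocyte markers were present in all libraries, with sums of 34190 to 49250 CPM after setanaxib and 44050 to 47100 CPM after vehicle, and 8 of the 10 were lowest in setanaxib replicate 3. Macrophage markers summed to 146 to 199 CPM after setanaxib and 254 to 322 CPM after vehicle, and endothelial markers to 492 to 629.8 CPM after setanaxib and 636 to 707 CPM after vehicle, so neither sum overlapped between groups. Taken singly, all 6 macrophage markers kept apart downward, against 9.46% of all genes tested. Of the 5 endothelial markers only Kdr did, and Pecam1 was slightly above 0 (log2 fold change 0.06). The sums of fibroblast markers (1292 to 2414 CPM after setanaxib, 1403 to 2029 after vehicle), smooth muscle markers (221 to 328 after setanaxib, 243 to 355 after vehicle) and erythrocyte markers (3299 to 4843 after setanaxib, 2763 to 5239 after vehicle) did overlap. Skeletal muscle markers summed to at most 0.464 CPM, and the skeletal myosins Myh1, Myh4 and Myh2 were at 0 in all 6 libraries. Values without setanaxib replicate 3 are therefore given for the 8 genes and for other named genes that it moved. Leaving that library out does not make the groups alike in tissue markers. All 4 atrial markers then had log2 fold changes below 0 (median -2.82), and Scgb1a1 was at -6.16 (SE 2.63), with none of these called in edgeR. In heart tissue, fewer muscle cells and less RNA per muscle cell cannot be told apart.

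**Figure D1:**
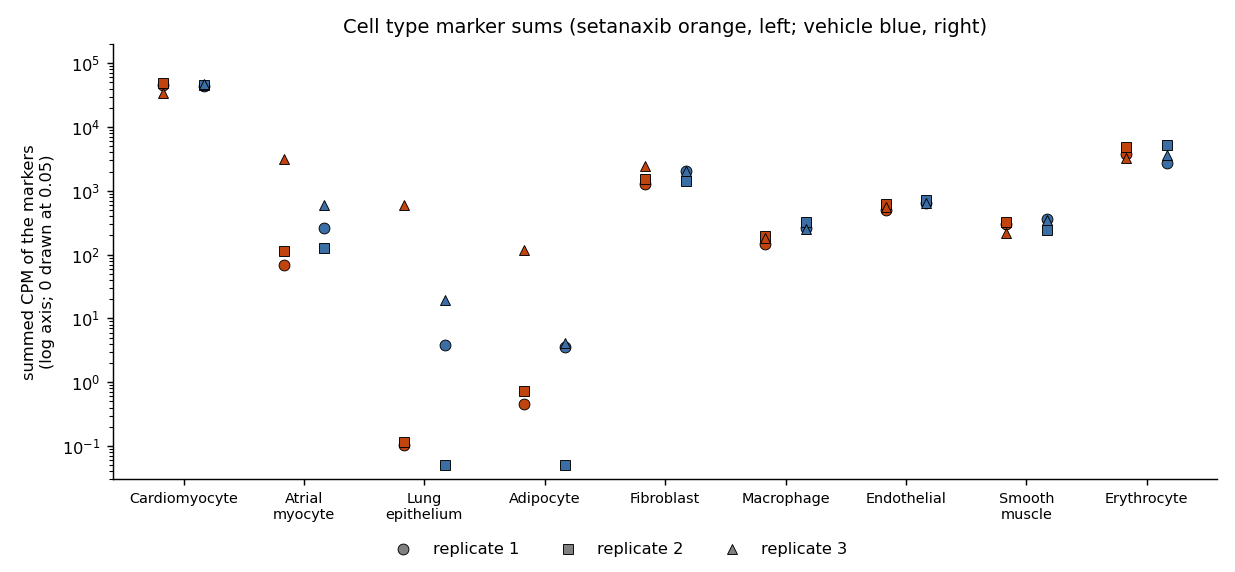
Summed CPM of cell type markers (log axis) for each library, with setanaxib in orange on the left of each pair, vehicle in blue on the right and symbols for replicates. Setanaxib replicate 3 lies far above the other libraries for atrial myocyte, lung epithelium and adipocyte markers (3129, 606 and 119 CPM) and lowest for cardiomyocyte markers (34190 CPM).

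Per transcript length, Cryab was the most abundant of the 8 genes and Hspb3 the least. Cryab, or alphaB-crystallin, the main small heat shock protein of the heart and a chaperone of desmin, was at 689 to 1247 CPM per kilobase of its principal transcript over the 6 libraries, with a median of 1077. Hspb7, a small heat shock protein found mainly in heart, had a median of 677 CPM per kilobase, Hspb6 of 556, Hspb1 of 169, Hspb8 of 129, Bag3 of 122, Hspb2 of 46.3 and Hspb3 of 2.80. Cryab exceeded Hspb3 by 302 to 476 times within a library. Neighbours in this order kept it within all 6 libraries, except Hspb8 and Bag3, which did so in 5 of 6, with ratios of 0.993 to 1.155. The ranges over libraries overlapped for Cryab and Hspb7, Hspb7 and Hspb6, Hspb1 and Hspb8, and Hspb8 and Bag3. With all annotated exons taken as the length, Bag3 came before Hspb8 and the rest of the order was the same. Of the summed level per kilobase of the 7 small heat shock genes, Cryab made up 37.6 to 44.8%, Hspb7 23.5 to 27.3% and Hspb6 17.03 to 23.5%, so that these 3 carried most of the family's transcripts.

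**Figure D2:**
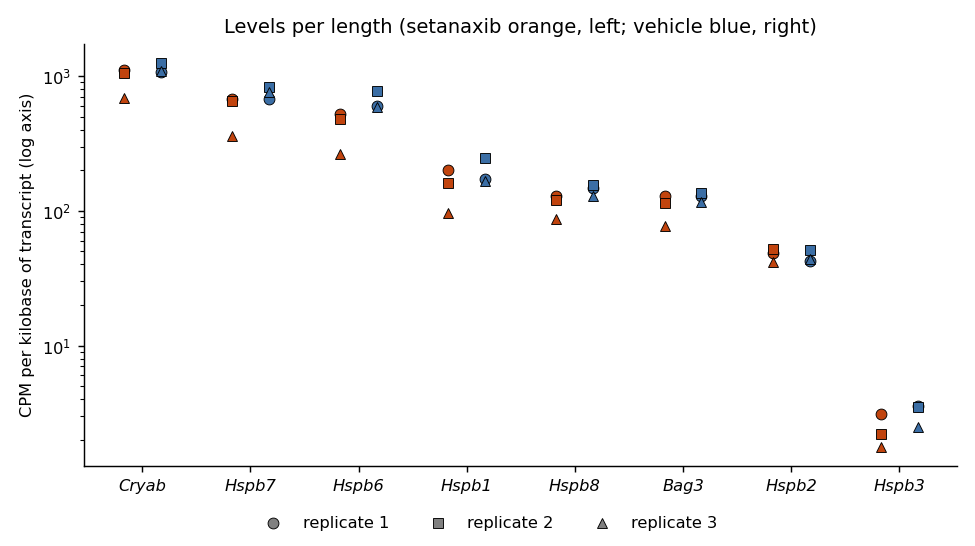
CPM per kilobase of principal transcript (log axis) of the 8 genes in each of the 6 libraries, setanaxib in orange on the left and vehicle in blue on the right. The median level goes down from 1077 for Cryab to 2.80 for Hspb3, and the triangle of setanaxib replicate 3 is the lowest point of every gene.

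None of the 8 genes passed the test of setanaxib against vehicle in edgeR, where 0.00488% of the 20472 genes tested did. DESeq2 called none of the 8 either, against 2.43% of its genes (1.52% as lower), and limma-voom called none of the 8 and 0% of all genes. At an unadjusted p under 0.05 edgeR had 0 of the 8, against 8.46% of all genes (4.69% lower and 3.76% higher), while DESeq2 and limma-voom each had 1, Hspb6, against 10.9% of all genes in DESeq2 and 9.58% in limma-voom. The log2 fold change was below 0 for 7 of the 8, against 48.4% of all genes tested, and its median was -0.35 over the 8 and 0.01 over all genes. In 3 of the 8 (Hspb6, Hspb7 and Hspb8) every setanaxib library lay below every vehicle library, which held for 9.46% of all genes. In TMM-normalised CPM all 8 genes were lowest in setanaxib replicate 3, whose TMM factor was 1.191, against 0.8916 to 1.03 in the others. For Hspb2 this rests on that factor, as it had 4233 of 110803307 counts there and 4013 of 121014814 in vehicle replicate 1. Without setanaxib replicate 3 edgeR again called 0 of the 8, against 0.00479% of genes, with a median over the 8 of -0.14. Then 2 of the 8, Hspb6 and Hspb7, kept apart downward, against 18% of all genes tested with the 2 remaining setanaxib libraries. Most of the 8 genes, Hspb2 least, vary together across libraries, so their directions are not independent observations.

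**Figure D3:**
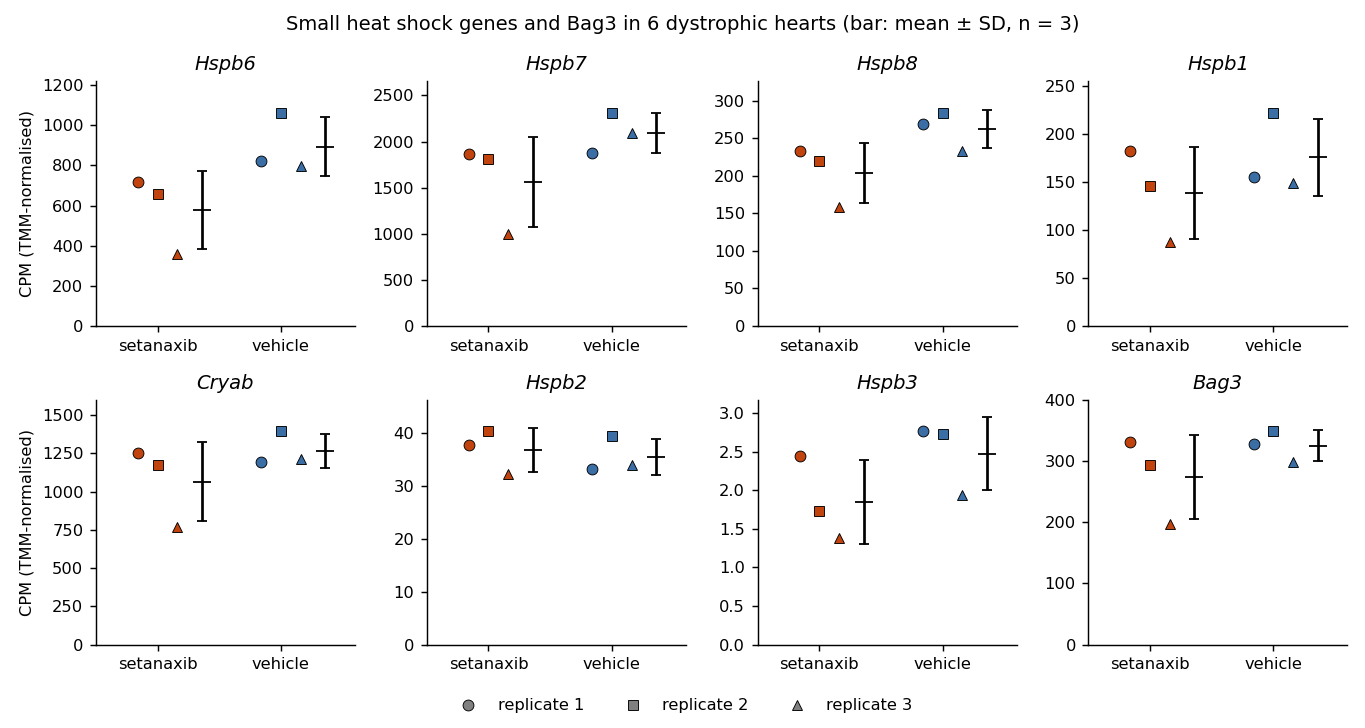
TMM-normalised CPM of each gene in each library, setanaxib on the left and vehicle on the right, with symbols for replicates and bars for mean ± SD (n = 3). Setanaxib replicate 3 (triangle) is lowest in all 8 panels, and the groups do not overlap for Hspb6, Hspb7 and Hspb8.

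Hspb6, or Hsp20, a target of protein kinase A in heart muscle and smooth muscle, had the most negative fold change. It was at 718, 657 and 357 CPM in setanaxib replicates 1 to 3 and at 820, 1061 and 797 CPM in vehicle replicates 1 to 3. The groups did not overlap, and the gap between the lowest vehicle library and the highest setanaxib library was small beside the spread within groups. The log2 fold change was -0.63 (SE 0.28, 95% interval -1.30 to 0.04, edgeR adjusted p = 0.617), which is 64.7% of the vehicle level. Without setanaxib replicate 3 it was -0.37 (SE 0.15, edgeR adjusted p = 0.368). Hspb6 shares exons on the opposite strand with Proser3 and Lin37, whose levels were at most 3.87 and 8.43 CPM in any library, and on the same strand with the miRNA gene Gm38670, which was not analysed here. Without a stated strand setting, reads shared with Proser3 and Lin37 cannot be assigned.

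Hspb7, a binding partner of filamin C, was at 1868, 1813 and 999 CPM in setanaxib libraries and 1880.4, 2309 and 2096 CPM in vehicle libraries. Setanaxib replicates 1 and 2 lay just below vehicle replicate 1, and replicate 3 at 47.9% of the geometric vehicle mean. The log2 fold change was -0.43 (SE 0.25, 95% interval -1.04 to 0.18, edgeR adjusted p = 0.707), and -0.18 (SE 0.10, edgeR adjusted p = 0.475) without setanaxib replicate 3.

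Hspb8, the small heat shock protein that works in a complex with Bag3, was at 233.4, 220 and 158 CPM in setanaxib libraries and 269, 284 and 233.6 CPM in vehicle libraries. The highest setanaxib library and the lowest vehicle library were thus almost equal, and after rescaling without setanaxib replicate 3 the groups overlapped. Its log2 fold change was -0.36 (SE 0.17, 95% interval -0.77 to 0.05, edgeR adjusted p = 0.638), and -0.21 (SE 0.10, edgeR adjusted p = 0.427) without that library.

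Bag3 was at 332, 293 and 198 CPM in setanaxib libraries and 328, 348 and 298 CPM in vehicle libraries. Setanaxib replicate 1 lay inside the vehicle range and replicate 2 just below it, at 90.4% of the geometric vehicle mean, while replicate 3 was at 61.0%. Its log2 value of -0.25 (SE 0.20, 95% interval -0.72 to 0.23, edgeR adjusted p = 0.805) moved to -0.05 (SE 0.10, edgeR adjusted p = 0.850) without setanaxib replicate 3.

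Cryab was at 1249, 1174 and 769.8 CPM in setanaxib libraries and 1191, 1393 and 1215 CPM in vehicle libraries, and its groups overlapped. Its log2 difference of -0.25 (SE 0.20, 95% interval -0.73 to 0.23, edgeR adjusted p = 0.802) moved to -0.06 (SE 0.09, edgeR adjusted p = 0.817) without setanaxib replicate 3. Hspb1, known as Hsp25 in mouse and Hsp27 in human, which guards actin filaments, was at 183, 145 and 87.5 CPM in setanaxib libraries and 156, 222 and 149 CPM in vehicle libraries. Its groups overlapped, as setanaxib replicate 1 was above 2 of the vehicle libraries. For Hspb1 the log2 fold change was -0.34 (SE 0.29, 95% interval -1.05 to 0.37, edgeR adjusted p = 0.817), and -0.09 (SE 0.21, edgeR adjusted p = 0.874) without setanaxib replicate 3. The Hspb1 pseudogene Hsp25-ps1 was at 16.2, 13.2 and 8.37 CPM in setanaxib libraries and 14.1, 19.9 and 13.5 CPM in vehicle libraries. Such a copy can share reads with Hspb1, which makes both values uncertain.

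Hspb2 and Hspb3, whose human proteins form a complex with each other in muscle, were the low members. Hspb2 was at 37.6, 40.2 and 32.1 CPM in setanaxib libraries and 33.1, 39.3 and 34.0 CPM in vehicle libraries. It was the 1 gene of the 8 with a fold change above 0, at 0.05 (SE 0.12, 95% interval -0.25 to 0.34, edgeR adjusted p = 0.953), and the sign turned without setanaxib replicate 2 (-0.03) or vehicle replicate 1 (-0.01). Without setanaxib replicate 3 it was 0.14 (SE 0.10, edgeR adjusted p = 0.596). Hspb3 was at 2.45, 1.73 and 1.38 CPM in setanaxib libraries and 2.76, 2.73 and 1.93 CPM in vehicle libraries, with overlapping groups. Its log2 fold change was -0.42 (SE 0.28, 95% interval -1.09 to 0.26, edgeR adjusted p = 0.750), and -0.24 (SE 0.26, edgeR adjusted p = 0.726) without setanaxib replicate 3.

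**Figure D4:**
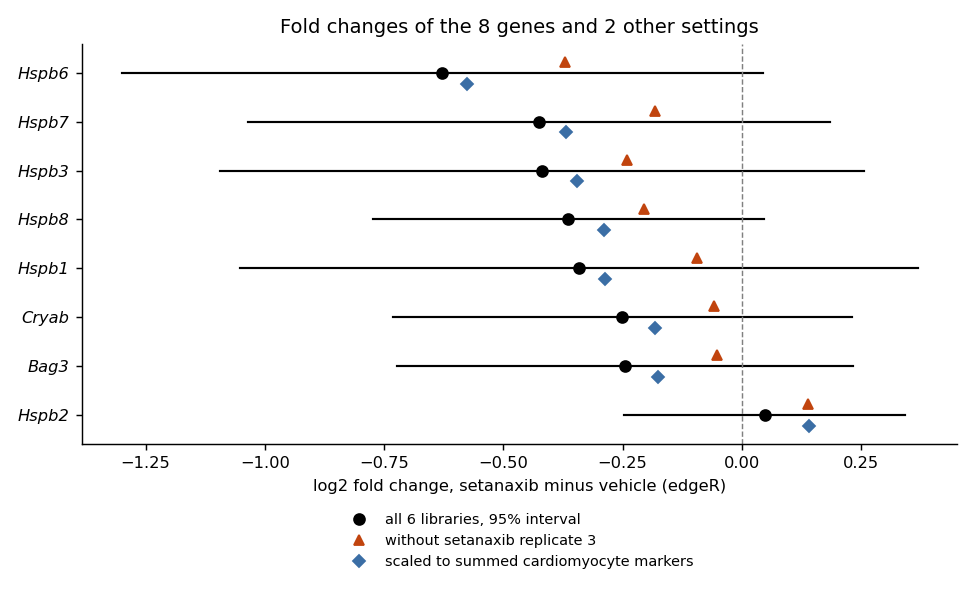
Log2 fold changes of setanaxib minus vehicle from edgeR with 95% intervals (black), without setanaxib replicate 3 (orange triangles) and scaled to summed cardiomyocyte markers (blue diamonds). All 8 intervals hold 0, and without setanaxib replicate 3 the values lie between -0.37 for Hspb6 and 0.14 for Hspb2.

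All 8 genes were also read against the cardiomyocyte markers, which gives a ratio to 10 transcripts and not a measure of muscle content. Myh6 was the highest of the 10 in every library. Of the 10, 3 (Actc1, Tnnc1 and Mybpc3) themselves kept apart downward, against 9.46% of all genes tested. As a share of the summed CPM of the 10 cardiomyocyte markers, Hspb6 was 1.58, 1.335 and 1.045% in setanaxib libraries and 1.86, 2.35 and 1.69% in vehicle libraries. Hspb7 was 4.105, 3.68 and 2.92% in setanaxib libraries and 4.27, 5.12 and 4.45% in vehicle libraries. For both, every setanaxib library was below every vehicle library (two-sided exact permutation p = 0.1, the smallest that 3 against 3 allows, and 0.32 adjusted over the 8 shares). Both genes were already apart in CPM, and the share of all genes apart on this scale was not computed. The log2 difference of the share was -0.58 for Hspb6, and -0.43 without setanaxib replicate 3. For Hspb7 it was -0.38, and -0.24 without that library. The other 6 shares overlapped, including Cryab at 2.745, 2.385 and 2.25% after setanaxib and 2.70, 3.09 and 2.58% after vehicle. In an edgeR fit scaled to these markers, a setting added after the data were seen, Hspb6 and Hspb7 had log2 fold changes of -0.58 and -0.37 (edgeR adjusted p = 0.892 for both), where the median of all genes lay at 0.12. The part that the cell make-up of setanaxib replicate 3 plays in these results was not tested.

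Ratios of 2 of the genes within a library do not depend on scaling. Cryab over Bag3, both per kilobase, was the steadiest of the 28 pairs, at 8.64, 9.19 and 8.92 in setanaxib libraries and 8.32, 9.17 and 9.34 in vehicle libraries. Hspb8 over Bag3, partners in 1 complex, was at 0.993, 1.06 and 1.125 in setanaxib libraries and 1.155, 1.148 and 1.10 in vehicle libraries, with overlapping groups. Hspb2 over Cryab was 0.0435, 0.0495 and 0.0603 in setanaxib libraries and 0.0401, 0.0408 and 0.0404 in vehicle libraries. The 3 vehicle values were nearly the same and all 3 setanaxib values lay above them, with a log2 difference of 0.32 (two-sided exact permutation p = 0.1, adjusted over the 28 pairs p = 0.35, higher in 3 of 3 setanaxib libraries). Without setanaxib replicate 3, the highest of them, the difference was 0.20. Hspb2 and Cryab are neighbours on chromosome 9, on opposite strands, and some of their annotated exons overlap. Reads of that overlap cannot be assigned without a strand setting, and Cryab has the far higher level. Hspb6 over Cryab likewise did not overlap between groups, at 0.471, 0.459 and 0.380 in setanaxib libraries and 0.564, 0.624 and 0.538 in vehicle libraries (log2 difference -0.40, and -0.30 without setanaxib replicate 3). In all, groups did not overlap in 8 of the 28 pairs, 4 of them among the 7 pairs with Hspb2. The share over pairs of other genes was not computed.

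**Figure D5:**
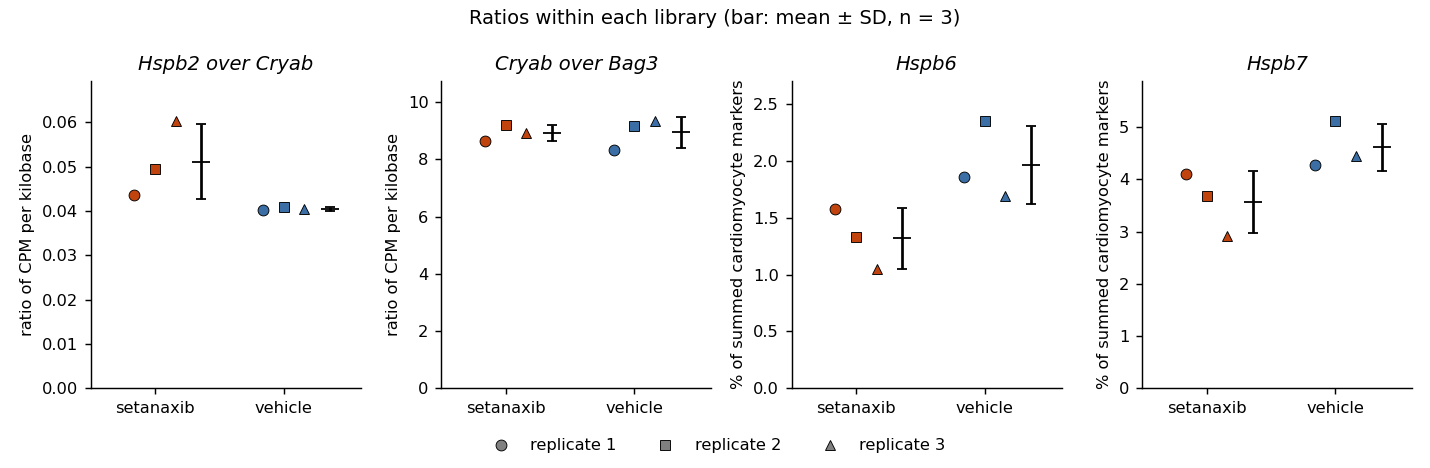
Ratios within each library, setanaxib on the left and vehicle on the right, with mean ± SD (n = 3). Hspb2 over Cryab is higher and Hspb6 and Hspb7 as a share of summed cardiomyocyte markers are lower in all 3 setanaxib libraries, while Cryab over Bag3 lies between 8.32 and 9.34 in all 6.

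Likeness of pattern was measured as the root mean square difference of centred log2 CPM over the 6 libraries, so that 0 is the same pattern. Among the 8, Cryab and Bag3 were closest, at 0.0578, followed by Hspb8 and Bag3 at 0.0763 and Hspb8 and Cryab at 0.0954. Hspb2 and Hspb6 were farthest apart, at 0.434. Out of 10127 genes that could be compared, Bag3 ranked 27 in closeness to Cryab, whereas the member nearest to Hspb2, Cryab, ranked 5676. The genes closest to Cryab were Ipo7, Pebp1 and Spire1, at 0.0257 to 0.0370, and those closest to Bag3 were Guk1, Dnajc11 and Ethe1, at 0.0324 to 0.0400. Hspb8 was closest to Pgam2, the muscle form of phosphoglycerate mutase, then Ncs1 and Noa1, at 0.0287 to 0.0363. Hspb7 was closest to Sh3bgr, Rasl10b and Adprhl1, at 0.0510 to 0.0695. Hspb6 was closest to Hsph1, the HSP110 partner of HSP70, at 0.0828, then Rrp12 and Nrap, the nebulin-related protein of growing myofibrils, at 0.0891 and 0.0936. Hspb2 was closest to Ubxn6, Clpp and Srp68, at 0.0231 to 0.0291, and Hspb3 to Tuba4a, Mcm3 and S100a1, at 0.0925 to 0.121. The gene closest to Hspb1 was its pseudogene Hsp25-ps1, at 0.0339. These are descriptions over 6 libraries that share the low setanaxib replicate 3.

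Genes around the small heat shock proteins were described by lists, none of whose members passed edgeR. Hsf1, the factor that drives the heat shock response, was at 40.6, 35.8 and 33.7 CPM in setanaxib libraries and 39.5, 36.7 and 37.5 CPM in vehicle libraries (log2 fold change -0.05, SE 0.10, edgeR adjusted p = 0.942), and its sign turned without setanaxib replicate 3 (0.02). Of 5 tested genes of the HSF list 3 were below 0, and the lowest p went to Hsf2, at 0.35 (SE 0.15, edgeR adjusted p = 0.616), and at 0.46 without that library. The largest change in this list was that of Hsf4, at -2.36 (SE 1.27, edgeR adjusted p = 0.688), and -2.17 without setanaxib replicate 3. Its level was low, at most 2.23 CPM in any library. Of the other 5 BAG genes 3 were below 0, with a median of -0.0018, and Bag4 was at 0.43 (SE 0.17, edgeR adjusted p = 0.577), and at 0.28 without setanaxib replicate 3. Without setanaxib replicate 3, 1 of 5 was below 0 in each of these lists. Hspb9 and Hspb11, the other small heat shock proteins tested, had at most 0.566 and 1.53 CPM in any library, and Cryaa and Odf1 did not pass the filter on low counts.

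Among 15 genes of the HSP70 and HSP110 families, to which small heat shock proteins hand their clients, 11 were below 0 (median -0.19), and 10 of 15 without setanaxib replicate 3 (median -0.13). The lowest p values went to Hspa1b and Hspa1a, the heat-inducible HSP70 genes, and Hspa1l, a related gene. Hspa1b was at 3.29, 2.91 and 3.29 CPM in setanaxib libraries and 6.77, 4.81 and 6.61 CPM in vehicle libraries (log2 fold change -0.94, SE 0.18, edgeR adjusted p = 0.303, DESeq2 adjusted p = 0.00103). Here setanaxib replicate 3 was like the other 2, and without it the value was -0.96. Hspa1a is a near-identical copy that can share reads, and stood at -0.79 in log2 (SE 0.15, edgeR adjusted p = 0.310, DESeq2 adjusted p = 0.00159), or -0.76 without that library. Hspa8, the constant HSP70 of Bag3 complexes, was at 752, 483 and 350.0 CPM in setanaxib libraries and 583, 657 and 567 CPM in vehicle libraries, with overlapping groups (log2 fold change -0.19, SE 0.27, edgeR adjusted p = 0.904). Its sign turned without setanaxib replicate 3, at 0.04.

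Of 21 J-domain, HSP90 and mitochondrial chaperonin genes 16 were below 0 (median -0.12), but 10 of 21 without setanaxib replicate 3 (median 0.01). Dnajb5, a J-domain partner of HSP70, was at 62.8, 76.8 and 51.9 CPM in setanaxib libraries and 104.9, 105.3 and 100.5 CPM in vehicle libraries (log2 fold change -0.70, SE 0.15, edgeR adjusted p = 0.355, DESeq2 adjusted p = 0.00353). Its groups stayed apart without setanaxib replicate 3, at -0.56 (SE 0.10). The 19 genes of chaperone-assisted selective autophagy, the route on which Bag3 acts, had 9 below 0 with a median of 0.00, and 6 of 19 without setanaxib replicate 3 (median 0.04). Of these, Stub1, the ubiquitin ligase that Bag3 complexes carry, was at 29.7, 27.5 and 25.4 CPM in setanaxib libraries and 30.7, 26.2 and 27.6 CPM in vehicle libraries (log2 fold change -0.03, SE 0.10, edgeR adjusted p = 0.969), and turned to 0.03 without setanaxib replicate 3. Synpo2, which ties Bag3 to autophagosome formation, stood at -0.25 in log2 (SE 0.18, adjusted p = 0.770 in edgeR), and Yap1, a transcription co-activator, at -0.27 (SE 0.10, adjusted p = 0.552 in edgeR). Without setanaxib replicate 3, Synpo2 was at -0.08 and Yap1 at -0.27.

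Of 18 genes listed as clients or sarcomere neighbours of the small heat shock proteins, 16 were below 0 (median -0.35). Without setanaxib replicate 3, 13 of 18 were (median -0.18). Groups did not overlap for 10 of the 18 downward, against 9.46% of all genes, and for Tcap upward, against 8.11%. Vim, Flna and Lmna, which are not specific to the sarcomere, count towards both the 16 and the 10. Vim was at 126, 193 and 281 CPM in setanaxib libraries and 317.5, 306 and 303 CPM in vehicle libraries. Among setanaxib libraries it was highest in replicate 3, as was Flna (128, 160 and 227 CPM), unlike the small heat shock genes. Flnc, filamin C, the Bag3 client at the Z-disc, was at 651, 742 and 468 CPM in setanaxib libraries and 815, 1103 and 867 CPM in vehicle libraries (log2 fold change -0.58, SE 0.21, edgeR adjusted p = 0.530), and at -0.41 without setanaxib replicate 3. Des, desmin, the client of Cryab, was at 1139, 1167 and 739 CPM in setanaxib libraries and 1250, 1332 and 1358 CPM in vehicle libraries (log2 fold change -0.37, SE 0.19, edgeR adjusted p = 0.671), and at -0.18 without that library. Xirp2, a Xin-repeat protein, and Lmna, which encodes lamin A and C, had log2 fold changes of -1.0015 (SE 0.38, edgeR adjusted p = 0.551) and -0.34 (SE 0.12, edgeR adjusted p = 0.512). Without setanaxib replicate 3, Xirp2 was at -0.65 and Lmna at -0.27. Tcap, the titin cap of the Z-disc, was at 504, 447 and 644 CPM in setanaxib libraries and 242, 263 and 335 CPM in vehicle libraries (log2 fold change 0.92, SE 0.19, edgeR adjusted p = 0.326, DESeq2 adjusted p = 0.000447), or 0.77 without setanaxib replicate 3, and was thus highest in the library where the small heat shock genes were lowest.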

How the data were processed

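Per the labels' protocols, RNA came from TRIzol extracts of hearts. The authors deposited estimated counts per gene, all whole, so they were used without rounding. Tools listed in the submitters' processing notes, with no role given, are STAR 2.5.4b, DESeq2 1.42.0, FastQC 0.11.9 and featureCounts 2.0.1, with the build GRCm39. Gene names in the header look like output of StringTie's count script. How strand was handled is not stated in what was used here.

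In R 4.3.3, genes were kept with filterByExpr (minimum count 10) and scaled with TMM. edgeR 4.0.16 tested setanaxib minus vehicle (quasi-likelihood, two-sided, Benjamini-Hochberg over all 20472 genes, threshold 0.05), and standard errors and 95% intervals derive from its F statistic. The procedure was tested on simulated data. DESeq2 1.42.0 and limma 3.58.1 (voom) were alternatives, as were other scalings, other filters and leaving out each library. Replicate numbers follow record order and pair no samples. Lengths are those of GENCODE principal transcripts on GRCm38. The 8 genes, the lists and the naming rules were chosen with earlier results of these data known. The rule allowed from each list up to 4 genes of lowest p, plus Hsf1, Hspa8, Stub1, Synpo2, Flnc and Des, and for likeness the 3 nearest genes with a mean log2 CPM of at least 2 (pseudocount 0.01). The text names some of them. Other named genes, among them Vim and Flna, fall outside this rule.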

Additional observations from a re-analysis of the deposited data

How the results depend on the processing

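None of the 8 genes passed the adjusted threshold in any of 13 other settings (104 values, adjusted p from 0.333 to 0.9997). The sign turned for Hspb2 alone, over a range of -0.03 to 0.14 when 1 library was left out, through -0.0254 without setanaxib replicate 2 and -0.0063 without vehicle replicate 1. The median log2 fold change of the 8 genes ran from -0.53 without setanaxib replicate 1 to -0.14 without setanaxib replicate 3, and was -0.14 with DESeq2 without setanaxib replicate 3, an alternative chosen after seeing the data. The number of genes called over the whole table was 1 in edgeR, 494 with DESeq2 (310 lower, 184 higher), 1392 with DESeq2 without setanaxib replicate 3, 0 with limma-voom, 0 with at least 10 counts required in every library, and 0 to 1 when 1 library was left out, with 0 without vehicle replicate 1, 2 or 3. Ratios and shares without setanaxib replicate 3 were likewise added after seeing the data. The cause of these differences was not tested. No paired analysis was possible because the labels give the libraries no shared replicate numbers. Precision rests on 3 libraries a group, and each of the 8 genes had at least 182 estimated counts in every library.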
